A study of Homo sapiens with 24 samples.

Results

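The comparison described here is the response of LNCaP cells to EPZ6438 (tazemetostat), a small molecule that blocks the catalytic site of the methyltransferase EZH2. Of the 24 bead arrays of the study, 6 carry it: 3 of LNCaP cells given EPZ6438 at 1 µM for 3 days and 3 of LNCaP cells given the solvent DMSO over the same 3 days. The members are all genes with a detected probe, which means a detection p-value under 0.05 on at least 3 of the 24 arrays, and there were 13789 of them among 20042 genes with a named probe. The genes were chosen by detection and not by the size of their response. The detection rule counts all 24 arrays, so a gene can enter through a single group where it is high. IFNB1, the gene of interferon-beta, is a member though detected on none of the 6 arrays. LNCaP is an androgen-responsive line from a lymph node metastasis of human prostate cancer, and every group was grown in RPMI medium with fetal bovine serum, with no hormone withdrawal stated. For comparison, 2 other experiments of the study are used where they show how LNCaP differs: C4-2B cells, a castration-resistant derivative of LNCaP, given EPZ6438 at 1 µM or DMSO for 3 days, and LNCaP cells transfected with an siRNA against EZH2 or a control siRNA for 3 days. Each of these groups also has 3 arrays, each line is a single cell line, and no array is shared between the 3 experiments. The labels number the replicates without stating separate cultures, so the p-values here cover only array-to-array spread, part or all of which may be technical.

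EZH2 is the catalytic subunit of PRC2, the Polycomb complex that places methyl groups on histone tails at silent genes and helps to keep developmental and lineage genes off. Its partners EED and SUZ12 are needed for activity, and PRC1, the other main Polycomb complex, acts at many of the same sites. In prostate cancer EZH2 is known as a repressor of such genes and also for functions separate from PRC2. Androgens, the steroid hormones of the prostate, drive genes such as KLK3 (prostate-specific antigen) and TMPRSS2. A catalytic inhibitor blocks methylation and leaves the protein in place, whereas an siRNA removes the protein.

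Between 19618 and 20355 probes were detected on the EPZ6438 arrays and between 19580 and 20061 on the DMSO arrays. Of 10 luminal prostate markers, 8 had a probe and all 8 were detected on all 6 arrays, among them KLK3, KLK2, TMPRSS2 and HOXB13. The basal keratins KRT5 and KRT14, the blood cell genes PTPRC, CD3E and HBB, the fibroblast genes COL3A1 and LUM and the neuroendocrine genes CHGA and SYP were detected on none of the 6. Other markers of these cell types were detected: the fibroblast collagen COL1A1 on all 6 arrays, the blood cell gene CD14 on 3 EPZ6438 and 2 DMSO arrays, the neuroendocrine factor INSM1 on 3 EPZ6438 and 1 DMSO array, and the fibroblast genes DCN and PDGFRB on 1 EPZ6438 array each and COL1A2 on 1 DMSO array. No pair of arrays held identical values. EPZ6438 replicate 1 stood apart from replicates 2 and 3: 97 genes were at least 2-fold away from the mean of the other 2 EPZ6438 arrays in it, against 3 in replicate 2 and 22 in replicate 3, and the same count was 11, 5 and 4 in DMSO replicates 1, 2 and 3. For most gene lists described at length, counts that move by over 1.5 times when it, or another of the 6 arrays, is left out are given beside the list. Counts of other lists may move as much. Having 3 arrays a group limits the precision of every value.

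With all 3 replicates, 921 of 13789 genes (6.68%) differed between EPZ6438 and DMSO at an adjusted p under 0.05 in limma, of which 552 (4%) were higher and 369 (2.68%) lower with EPZ6438. The changes were small. The median size among the called genes was 0.49 on the log2 scale, only 20 genes were at least 2-fold higher and 3 at least 2-fold lower, and the median over all genes was 0.01. Past 1.5-fold there were 189 higher and 73 lower genes. In 867 of the 921 called genes the 3 EPZ6438 arrays did not overlap the 3 DMSO arrays. Over all genes, whether called or not, the EPZ6438 arrays were all above the DMSO arrays for 1635 (11.9%) and all below for 1370 (9.94%). A called gene often has further probes, and 329 of 380 such probes (86.6%) pointed the same way as the probe that stands for the gene. The number of calls depended on the arrays and on the scaling. It was 958 higher and 823 lower without EPZ6438 replicate 1, 193 higher and 102 lower without EPZ6438 replicate 3, 326 higher and 164 lower without DMSO replicate 1, and 263 higher and 138 lower without DMSO replicate 3. It was 42 higher and 11 lower when the spread was taken from the 6 LNCaP arrays alone, and 26 higher and 2 lower (92.9% higher, against 59.9%) with median centring in place of quantile normalisation. Of the 123 called genes named by rule, 13 were called under every one of the 19 alternatives: ACTA2, ADRA2A, AKR1C3, CCL2, CCL8, CXCL8, CXCL10, GBP2, LCN2, SOX9 and SPOCK1, all higher, and UGT2B15 and UGT2B17, both lower.

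**Figure D1:**
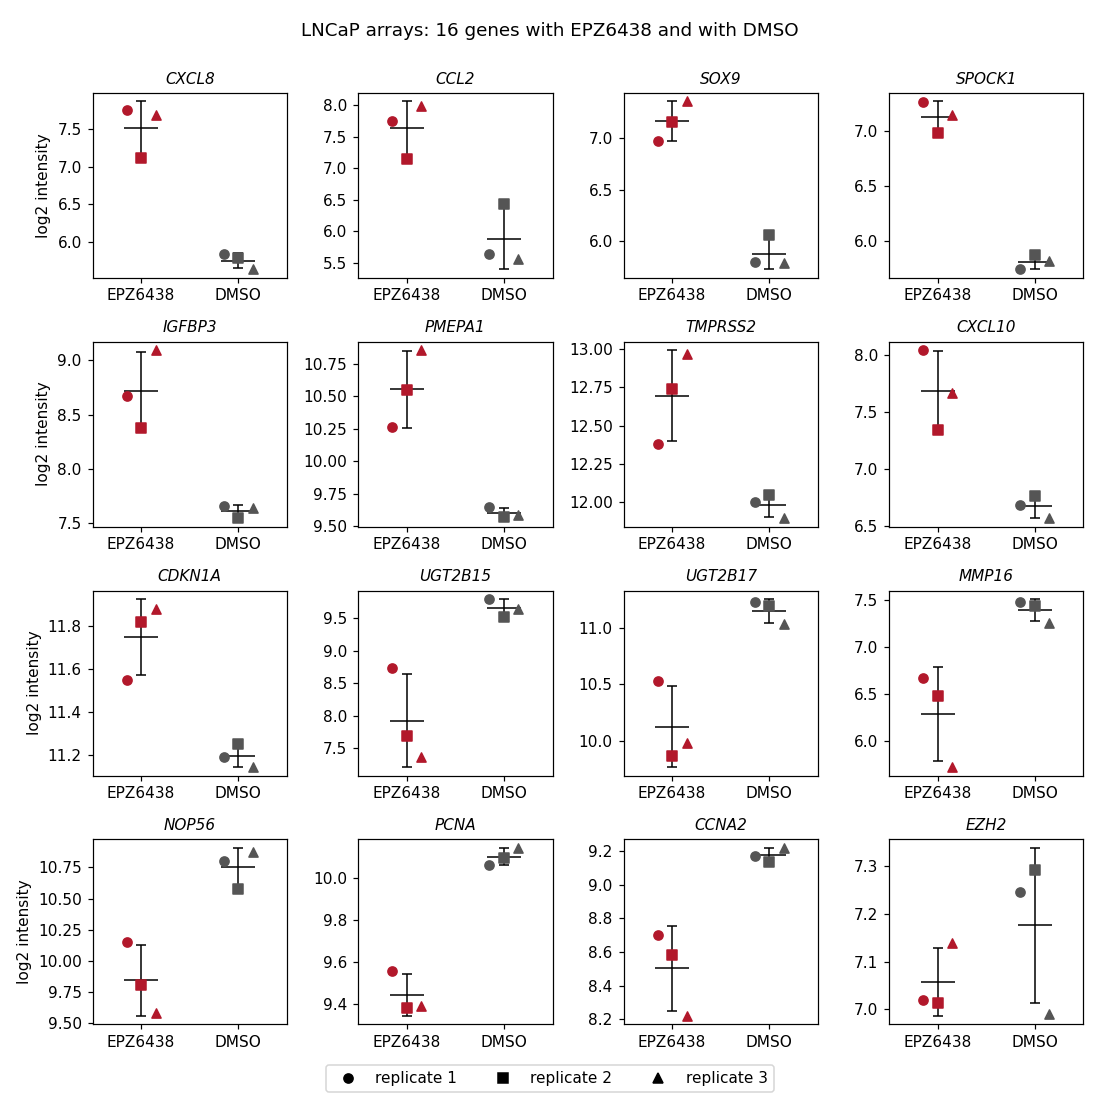
Normalised log2 intensity (vertical axis, scaled separately in each panel) of 16 genes on the 3 EPZ6438 and 3 DMSO arrays of LNCaP cells, with a symbol for each replicate, the mean as a bar and the SD as the error bar. The groups stand apart in every panel but that of EZH2, whose difference was −0.12 on the log2 scale, and EPZ6438 replicate 1 is the array nearest to the DMSO arrays for UGT2B15, UGT2B17, NOP56, PCNA and CCNA2.

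EZH2 itself (chr7:148807383-148884291, GRCh38.p14) read 7.02, 7.01 and 7.14 with EPZ6438 and 7.24, 7.29 and 6.99 with DMSO, on the log2 intensity scale used throughout. The 2 sets of values overlapped, with a difference of −0.12 ± 0.16 (SE) and an adjusted p of 0.739, and the other 2 probes of EZH2 did not pass the test either (−0.58, adjusted p = 0.15, and −0.26, adjusted p = 0.31). Of 12 measured PRC2 components, 1 was higher and 1 lower. JARID2, an accessory subunit that helps to recruit the complex, was higher by 0.45 ± 0.12 (adjusted p = 0.0267), although its lowest EPZ6438 value of 7.55 lay below the highest DMSO value of 7.66. RBBP7, a histone-binding subunit, read 8.14, 8.28 and 8.34 with EPZ6438 against 8.59, 8.68 and 8.68 with DMSO and was lower by 0.40 (log2 difference −0.40 ± 0.09, adjusted p = 0.0101). Among 18 PRC1 components, BMI1, which supports its ubiquitin ligase, was higher (0.54 ± 0.12, adjusted p = 0.00856) and PHC3, a structural subunit, was lower (−0.49 ± 0.13, adjusted p = 0.0239). The second probe of PHC3 showed 0.01.

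Genes reported elsewhere as repressed by EZH2 were the next question, because the inhibitor is used to release them. Of 21 measured, 9 were higher and none lower, with a median log2 difference of 0.18, against 4% higher and a median of 0.01 over all genes. The count was 5 without EPZ6438 replicate 3. SOX9, a transcription factor of prostate epithelial development, read 6.97, 7.16 and 7.36 with EPZ6438 and 5.80, 6.06 and 5.79 with DMSO, a difference of 1.28 ± 0.14 (adjusted p = 6.67e-06), and every EPZ6438 array was about a log2 unit above every DMSO array. IGFBP3, which binds insulin-like growth factors in the medium, read 8.67, 8.38 and 9.09 with EPZ6438 against 7.65, 7.54 and 7.64 with DMSO (1.10 ± 0.15, adjusted p = 0.000143), and its second probe gave 1.19. PLAAT4, a phospholipase and acyltransferase with growth-suppressing activity, rose by 0.80 ± 0.16 (adjusted p = 0.00442), although DMSO replicate 2, at 7.67, was close to the lowest EPZ6438 array, at 7.78. VASH1, an inhibitor of angiogenesis detected on 1 of the 3 DMSO arrays, TIMP2, an inhibitor of metalloproteinases, and NKD2, an antagonist of Wnt signalling, rose by 0.63, 0.52 and 0.57. TGFBR2, the type II receptor of TGF-beta, was detected on all 3 EPZ6438 arrays and not above background on any DMSO array, which gives at least 1.35-fold higher (measured means 4.97 and 4.38, adjusted p = 0.0172), where the lower bound takes the higher of the dimmest detected probe and the gene's own signal on each DMSO array. The second probe of TGFBR2 gave 0.33 and narrowly did not pass (adjusted p = 0.0501). The other 12 members did not pass, among them CDH1, the epithelial cadherin (0.00) and RUNX3, a tumour suppressor (0.05). BMPR1B and CXCL10, described with other lists below, complete the 9. HOX genes, classic Polycomb targets, had 0 of 16 members called, with a median of 0.01.

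The largest increases were in genes of inflammatory signalling. NF-kappaB is a transcription factor held in the cytoplasm by inhibitors such as NFKBIA until cytokine or stress signals free it, and it drives chemokines, cytokines and its own inhibitors. Of 24 NF-kappaB target and chemokine genes, 10 were higher and none lower, with a median log2 difference of 0.40. In 12 of them the EPZ6438 arrays lay wholly above the DMSO arrays. Over all genes 4% were called higher and 11.9% lay wholly above, while 2.68% were called lower and 9.94% lay wholly below. These shares are the background for the LNCaP list counts below. CXCL8 (chr4:73740569-73743716), the neutrophil chemokine interleukin-8, read 7.76, 7.11 and 7.68 with EPZ6438 and 5.83, 5.78 and 5.63 with DMSO. Its difference of 1.77 ± 0.18 (adjusted p = 3.13e-06) was the largest rise of any gene whose groups did not overlap, and its second probe rose by 1.10 (adjusted p = 0.0072).

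CCL2 (chr17:34255285-34257203), which attracts monocytes, read 7.75, 7.15 and 7.99 with EPZ6438 against 5.64, 6.44 and 5.56 with DMSO (1.75 ± 0.19, adjusted p = 6.69e-06). The SD of CCL2 was 0.43 over the EPZ6438 arrays and 0.48 over the DMSO arrays. Its SE is taken from all 24 arrays and is small beside that spread. CCL8, a related monocyte chemokine, read 8.36, 7.98 and 8.05 with EPZ6438 against 6.56, 6.83 and 6.70 with DMSO (1.43 ± 0.13, adjusted p = 9.87e-07). For both genes the lowest EPZ6438 array was replicate 2, and none of the 3 EPZ6438 arrays reached down to the DMSO values. LCN2, a secreted carrier of iron-binding siderophores, rose by 1.21 ± 0.13, CCL20, a ligand of the receptor CCR6, by 1.06 ± 0.17, and TNF, the inflammatory cytokine, by 1.02 ± 0.17 (adjusted p = 5.45e-06, 0.000465 and 0.000819). TNF was detected on only 2 of the 3 DMSO arrays. Members outside the naming rule also rose: the cytokine IL32 (0.92 ± 0.14, adjusted p = 0.00028), the negative regulators TNFAIP3 (0.81 ± 0.17, adjusted p = 0.0046) and NFKBIA (0.41 ± 0.12, adjusted p = 0.034), and BCL3 (0.58). The NF-kappaB subunits were not called, with NFKB2 at 0.40, NFKB1 at 0.20 and RELB at 0.00, nor was SOD2 (−0.11).

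The promoters of the list were read from 250 bases before to 50 bases after the transcription start (RefSeq, GRCh38.p14). They were searched for the NF-kappaB motif GGNNNTTCC on either strand. It was present in 14 of 19 list members with a promoter in the table (73.7%), in 22.7% of all 10879 measured genes with one, in 23.9% of the genes called higher and in 23.6% of those called lower. The list was written from genes known as NF-kappaB targets, so the share is not independent of the list. Of its 9 called members with a promoter, 7 held the motif, which is near the share of the whole list and does not set them apart. The promoters of 4 of them are shown 5′ to 3′ on the strand of the gene, with motif matches in capitals.
CXCL8, chr4:73740319-73740618, plus strand: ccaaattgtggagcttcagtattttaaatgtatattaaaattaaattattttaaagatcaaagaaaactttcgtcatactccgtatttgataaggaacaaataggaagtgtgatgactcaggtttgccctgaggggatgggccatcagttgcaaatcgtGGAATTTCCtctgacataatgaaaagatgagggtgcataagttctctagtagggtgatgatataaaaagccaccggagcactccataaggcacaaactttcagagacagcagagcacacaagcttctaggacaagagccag
CCL20, chr2:227813592-227813891, plus strand: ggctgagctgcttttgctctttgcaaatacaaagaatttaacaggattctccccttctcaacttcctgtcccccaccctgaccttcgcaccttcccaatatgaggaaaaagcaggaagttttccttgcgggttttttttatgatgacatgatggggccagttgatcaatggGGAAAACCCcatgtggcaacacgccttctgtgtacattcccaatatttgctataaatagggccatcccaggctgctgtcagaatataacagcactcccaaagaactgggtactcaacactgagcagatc
LCN2, chr9:128149203-128149502, plus strand: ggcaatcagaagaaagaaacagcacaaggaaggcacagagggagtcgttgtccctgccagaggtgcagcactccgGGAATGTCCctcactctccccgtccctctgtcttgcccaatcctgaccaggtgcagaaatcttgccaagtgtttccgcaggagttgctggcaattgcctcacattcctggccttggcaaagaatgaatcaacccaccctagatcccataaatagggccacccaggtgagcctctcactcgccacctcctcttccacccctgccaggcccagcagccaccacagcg
TNFAIP3, chr6:137867009-137867308, plus strand: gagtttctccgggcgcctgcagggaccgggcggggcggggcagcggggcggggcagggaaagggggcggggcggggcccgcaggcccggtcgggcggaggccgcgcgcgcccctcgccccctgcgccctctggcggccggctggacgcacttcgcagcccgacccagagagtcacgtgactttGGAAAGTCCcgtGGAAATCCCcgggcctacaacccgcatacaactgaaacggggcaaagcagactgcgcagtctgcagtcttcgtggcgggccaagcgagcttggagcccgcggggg
The match in CXCL8 reads on both strands and begins 91 bases before the start, that in CCL20 begins 79 and that in LCN2 175 bases before it, and TNFAIP3 holds a pair 67 and 55 bases before its start. A match describes the letters in this window and is not evidence of binding.

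Interferon-stimulated genes, which carry out antiviral defence and antigen presentation downstream of interferons, were higher as well, at smaller sizes. Of 54 measured, 15 were higher and none lower, with a median log2 difference of 0.20, against 4% higher over all genes. The count was 7 without EPZ6438 replicate 3, 6 without DMSO replicate 1 and 8 without DMSO replicate 3. CXCL10 (chr4:76021118-76023497), a chemokine for T cells, read 8.04, 7.34 and 7.66 with EPZ6438 and 6.68, 6.76 and 6.57 with DMSO (1.01 ± 0.15, adjusted p = 0.000215). GBP2, an antimicrobial GTPase, rose by 0.95 ± 0.14, IFIT2, which binds viral RNA, by 0.80 ± 0.14, and OASL, which acts in the RIG-I pathway, by 0.74 ± 0.13 (adjusted p = 0.000247, 0.00127 and 0.00164). IRF1, a transcription factor of the interferon-gamma response, read 6.63, 6.72 and 7.54 with EPZ6438 against 5.78, 6.41 and 6.01 with DMSO, so that replicate 3 supplied much of its rise of 0.90 ± 0.20. Without replicate 3 the adjusted p of IRF1 was 0.079. Canonical members stayed near 0 and were not called, among them ISG15, the ubiquitin-like modifier (0.06), MX1, which blocks viral replication (0.17) and IRF7, a regulator of interferon genes (−0.04). IFNB1, the gene of interferon-beta, was detected on none of the 6 arrays. The response element motif GAAANNGAA was present in 64.4% of the 45 promoters of the list, against 6.31% of all, a share again tied to how the list was written.

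Genes that androgen switches on were more often higher than all genes were, and several genes that androgen switches off were lower. Of 40 androgen-induced genes, 16 were higher and none lower (median log2 difference 0.38), against 4% higher over all genes. In 21 the EPZ6438 arrays lay wholly above the DMSO arrays, against 11.9% of all genes. PMEPA1, an androgen- and TGF-beta-induced membrane protein, read 10.26, 10.55 and 10.86 with EPZ6438 against 9.65, 9.57 and 9.59 with DMSO (0.95 ± 0.13, adjusted p = 0.000115), while 1 of its other 2 probes showed 0.05 and the other 0.93. KLK2, a kallikrein protease of prostate secretions, read 8.30, 8.74 and 8.96 with EPZ6438 against 7.98, 7.86 and 7.84 with DMSO (0.78 ± 0.13, adjusted p = 0.000819). TMPRSS2 (chr21:41464305-41508158), a membrane protease and one of the brightest probes measured, read 12.38, 12.74 and 12.97 with EPZ6438 against 12.00, 12.05 and 11.89 with DMSO (0.72 ± 0.12, adjusted p = 0.000773). In each of these 3 genes replicate 1 was the lowest EPZ6438 array and still above every DMSO array.

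Further androgen-induced genes rose to a similar degree. They include the ion channel TRPM8 (0.72 ± 0.12), the kinase SGK1 (0.72 ± 0.13), the receptor BMPR1B (0.82 ± 0.13, with a second probe at 0.11), the transcription elongation factor ELL2 (0.69 ± 0.12) and the transcription factor MAF (0.67 ± 0.11). KLK3 read 8.64, 9.16 and 9.10 with EPZ6438 against 8.24, 8.16 and 8.75 with DMSO, which overlapped, and its difference of 0.58 ± 0.19 did not pass (adjusted p = 0.065). FKBP5, a chaperone of steroid receptors and a standard androgen target, did not pass either (0.23, adjusted p = 0.208). The luminal prostate markers, some of which are androgen targets, had 8 of 22 members higher and 1 lower (median 0.39), and 5 higher without EPZ6438 replicate 3. The lower one was FOLH1, the prostate-specific membrane antigen (−0.43 ± 0.13, adjusted p = 0.049), and the higher ones included AZGP1, a secreted glycoprotein (0.67 ± 0.12), KRT8, a luminal keratin (0.53 ± 0.13), and GATA2, a transcription factor of luminal cells (0.56 ± 0.16). The half-site AGAACA of the androgen response element was found in 14.1% of promoters of genes called higher, 7.64% of those called lower and 9.43% of all, and in 3 of 32 promoters of the androgen-induced list (9.38%). Many known androgen response elements lie in distant enhancers outside this window.

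The deepest decrease among all called genes was in UGT2B15 (chr4:68646597-68670652), an enzyme that couples androgens to glucuronic acid and so inactivates them. It read 8.73, 7.68 and 7.36 with EPZ6438 and 9.80, 9.53 and 9.65 with DMSO, a difference for UGT2B15 of −1.73 ± 0.28 (adjusted p = 0.000465), with EPZ6438 replicate 1 more than a log2 unit above the other 2. UGT2B17 (chr4:68537173-68576322), a close relative with the same activity, read 10.53, 9.86 and 9.98 with EPZ6438 against 11.23, 11.19 and 11.03 with DMSO (−1.02 ± 0.14, adjusted p = 0.000141). UGT2B10 (−0.92 ± 0.15), UGT2B11 (−0.55 ± 0.13) and UGT2B28 (−0.46 ± 0.14, adjusted p = 0.049) fell too. The UGT2B genes have nearly identical sequences, so signal may be shared between their probes, and the 5 decreases are not independent. Other probes of UGT2B15 gave −0.83 and of UGT2B17 −1.17 and −1.34. Together with BCHE, a cholinesterase (−0.61 ± 0.13, second probe −0.81), these made 6 of 11 androgen-repressed genes lower and none higher (median −0.46). CAMK2N1, an inhibitor of a calcium-dependent kinase, did not pass (−0.37), nor did OPRK1, an opioid receptor (0.09). In the same steroid pathway AKR1C3, which makes testosterone from weaker androgens, rose, with 6.91, 6.36 and 6.84 with EPZ6438 against 5.81, 5.79 and 5.49 with DMSO (1.01 ± 0.12, adjusted p = 2.19e-05).

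**Figure D2:**
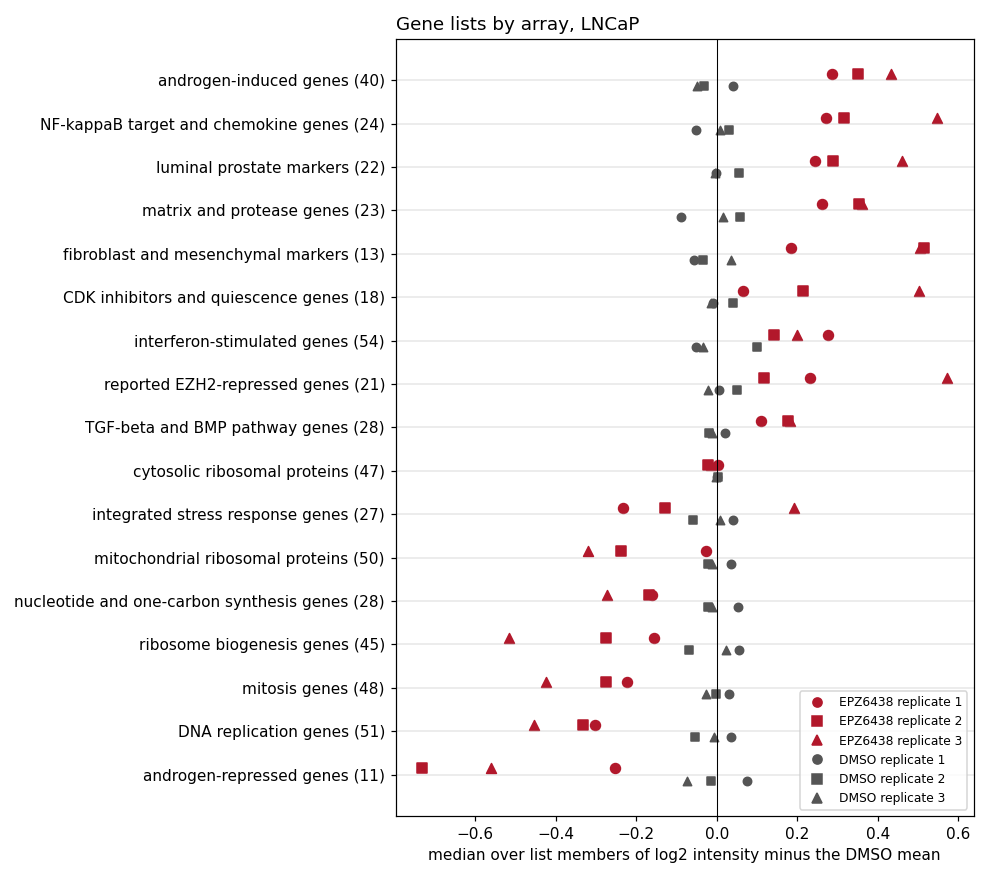
Median over the members of 17 gene lists (number of members in brackets) of log2 intensity minus the DMSO mean (horizontal axis), for each EPZ6438 array (upper symbols in each row) and each DMSO array (lower symbols). The androgen-induced and NF-kappaB lists lie at 0.27 to 0.55 on every EPZ6438 array and the DNA replication list at −0.30 to −0.45, whereas EPZ6438 replicate 1 lies nearer to 0 than replicates 2 and 3 for mitochondrial ribosomal proteins (−0.03, −0.24 and −0.32).

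Genes of DNA replication were lower with EPZ6438. They unwind and copy DNA in S phase, and their transcripts follow the E2F factors, so fewer cells in S phase and less RNA per cell cannot be told apart in bulk RNA. Of 51 measured, 22 were lower and none higher, against 2.68% lower over all genes, and the median log2 difference was −0.41. In 35 the EPZ6438 arrays lay wholly below the DMSO arrays, against 9.94% of all genes. The count of lower genes was 5 without EPZ6438 replicate 3, 11 without DMSO replicate 1 and 10 without DMSO replicate 3. PCNA (chr20:5114953-5126622), the sliding clamp of DNA polymerases, read 9.56, 9.38 and 9.39 with EPZ6438 against 10.06, 10.10 and 10.14 with DMSO (−0.66 ± 0.12, adjusted p = 0.00187), with other probes at −0.28 and −0.66. E2F2, an activating E2F factor, read 7.31, 7.61 and 7.69 with EPZ6438 against 8.25, 8.15 and 8.32 with DMSO (−0.70 ± 0.16, adjusted p = 0.00749). MCM10, which loads the replicative helicase's partners, fell by 0.70 ± 0.16, RFC2, of the clamp loader, by 0.70 ± 0.16 and POLE2, a subunit of polymerase epsilon, by 0.66 ± 0.16 (adjusted p = 0.0111, 0.00931 and 0.0114). Second probes of MCM10 and RFC2 gave −0.53 and −0.37 and did not pass (adjusted p = 0.085 and 0.21). All 3 EPZ6438 arrays were below all 3 DMSO arrays in each of these 5 genes. The licensing factor CDT1 fell by 0.62 ± 0.15 and the helicase subunit MCM4 by 0.58 ± 0.16, whereas MCM2 (−0.54, adjusted p = 0.054), RRM2 (−0.16) and CCNE1 (−0.10) did not pass.

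Mitosis genes were lower by a similar amount but with fewer calls. Of 48 measured, 14 were lower and none higher (median −0.34), against 2.68% lower over all genes. In 34 the EPZ6438 arrays lay wholly below the DMSO arrays, against 9.94% of all genes. CCNA2, the cyclin of S phase and early mitosis, read 8.70, 8.58 and 8.22 with EPZ6438 against 9.17, 9.14 and 9.22 with DMSO (−0.67 ± 0.13, adjusted p = 0.00344). AURKB, a kinase of the chromosomal passenger complex, fell by 0.58 ± 0.13, CENPA, the centromeric histone, by 0.48 ± 0.11 and NDC80, of the outer kinetochore, by 0.48 ± 0.11. The proliferation marker MKI67 (−0.25 ± 0.13, adjusted p = 0.27) and CDK1 (−0.35 ± 0.14, adjusted p = 0.14) did not pass. The count of lower mitosis genes was 26, 8 and 1 without EPZ6438 replicates 1, 2 and 3 in turn, and 5, 7 and 6 without DMSO replicates 1, 2 and 3. On the other side of the cell cycle, 4 of 18 CDK inhibitors and quiescence genes were higher and none lower (median 0.24), and 7 were higher without EPZ6438 replicate 1 and 1 without replicate 3. CDKN1A (p21), an inhibitor of cyclin-dependent kinases, read 11.55, 11.82 and 11.88 with EPZ6438 against 11.19, 11.25 and 11.15 with DMSO (0.55 ± 0.11, adjusted p = 0.00464), though its second probe showed 0.03. CDKN2B (p15) rose by 0.54 ± 0.13, FOXO3, a transcription factor of quiescence, by 0.68 ± 0.14 and TXNIP, a thioredoxin inhibitor and brake on glucose uptake, by 0.77 ± 0.16. Second probes of CDKN2B and FOXO3 showed 0.23 and 0.42 and did not pass (adjusted p = 0.33 and 0.081). The p53 target list as a whole was mixed, with 3 of 27 higher and 1 lower.

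Genes that build ribosomes in the nucleolus were lower, while the ribosomal proteins themselves were not. Of 45 ribosome biogenesis genes, 14 were lower and none higher (median −0.31), against 2.68% lower over all genes. The count was 22 without EPZ6438 replicate 1, 5 without EPZ6438 replicate 3, and 6 without DMSO replicate 1 or 3. NOP56 (chr20:2652632-2658393), a core protein of the particles that methylate ribosomal RNA, read 10.15, 9.80 and 9.58 with EPZ6438 against 10.80, 10.57 and 10.88 with DMSO (−0.91 ± 0.12, adjusted p = 9.29e-05), and its other probes gave −0.70 and −0.60. Its partner NOP58 fell by 0.63 ± 0.12, LYAR, a nucleolar growth regulator, by 0.84 ± 0.13, NAF1, an assembly factor of the pseudouridylating particles, by 0.83 ± 0.16 and NOLC1, a nucleolar scaffold, by 0.65 ± 0.10 (adjusted p = 0.00321, 0.000437, 0.00217 and 0.000286). In contrast, 0 of 47 cytosolic ribosomal protein genes were called, with a median of 0.00 and 0 of 23 RNA polymerase I and III genes were called (median −0.12). Mitochondrial ribosomal proteins had 6 of 50 lower (median −0.18), which was 20, 3 and 2 without EPZ6438 replicates 1, 2 and 3 in turn and 2 without any 1 DMSO array. Nucleotide and one-carbon synthesis had 5 of 28 lower (2 without EPZ6438 replicate 2, and 1 without EPZ6438 replicate 3, DMSO replicate 1 or DMSO replicate 3), led by TK1, the thymidine kinase of S phase (−0.72 ± 0.19), and PFAS, of purine synthesis (−0.69 ± 0.11). MYC, which drives many of these genes, read 10.83, 11.10 and 10.93 with EPZ6438 against 10.92, 10.96 and 11.15 with DMSO and did not differ beyond that spread (−0.06 ± 0.10, adjusted p = 0.81). The E-box CACGTG, which MYC and related factors bind, was present in 16 of 36 promoters of the ribosome biogenesis list (44.4%). It was present in 10.1% of all promoters and in 11.6% of those of genes called lower. Of the 8 called members with a promoter 4 held it, which is near the share of the whole list.

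Several genes of mesenchymal cells, the extracellular matrix and TGF-beta signalling rose. ACTA2, smooth muscle actin, read 8.90, 8.88 and 9.20 with EPZ6438 against 7.81, 8.21 and 7.84 with DMSO (1.04 ± 0.15, adjusted p = 0.000189). TWIST1, a factor of epithelial-mesenchymal transition, read 7.24, 7.51 and 7.36 with EPZ6438 against 6.56, 6.52 and 6.81 with DMSO (0.74 ± 0.10, adjusted p = 0.00016). SNAI2, a factor of the same programme, rose by 0.72 ± 0.12 (second probe 0.22) and VIM, the mesenchymal filament vimentin, by 0.51 ± 0.10. These are 4 of 13 fibroblast and mesenchymal genes measured, and the median of the list was 0.29. Without EPZ6438 replicate 1, 7 of the 13 were higher. The summed linear intensity of the 13 genes was 1514 to 1825 on the EPZ6438 arrays against 1059 to 1147 on the DMSO arrays, and the part of other cells in this was not tested, while the fibroblast collagen COL3A1 and the proteoglycan LUM were detected on no array and COL1A1, detected on all 6, was not called (0.28). Among 23 matrix and protease genes 6 rose and 1 fell (median 0.32). SPOCK1, a testican proteoglycan, read 7.27, 6.98 and 7.14 with EPZ6438 against 5.74, 5.87 and 5.82 with DMSO (1.32 ± 0.11, adjusted p = 1.37e-07), the smallest adjusted p of the genes named here for this comparison. MMP7, the protease matrilysin, rose by 0.75 ± 0.11, ADAMTS1 by 0.63 ± 0.11 and the laminin chain LAMC1 by 0.53 ± 0.10, whereas MMP16, a membrane metalloproteinase, fell by 1.10 ± 0.18 (adjusted p = 0.000471), with a second probe at −0.11. In the TGF-beta and BMP pathway 6 of 28 rose and none fell (3 rose without EPZ6438 replicate 3), against 4% higher over all genes. Among them were BAMBI, a decoy receptor (0.46 ± 0.10), and ID1, an inhibitor of differentiation factors (0.48 ± 0.14, second probe −0.18), beside TGFBR2, BMPR1B and PMEPA1 above. SMAD4, the shared signal carrier, did not pass (0.16).

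The 20 largest increases also included SHROOM1, an actin-binding protein. It read 5.22, 6.23 and 6.00 with EPZ6438 against 4.68, 4.42 and 4.70 with DMSO (1.22 ± 0.17). DUSP5, a phosphatase that ends ERK signalling and a member of the ERK list below, rose by 1.11 ± 0.20. PLCH2, a phospholipase C, rose by 1.06 ± 0.20, ADRA2A, an adrenergic receptor, by 1.05 ± 0.13 and PRKCA, a protein kinase C, by 0.99 ± 0.13. For PLCH2 and MICAL1 (1.02 ± 0.21), a protein that oxidises actin, replicate 1 was the lowest EPZ6438 array, at 6.16 and 7.37. PGC, the gastric protease progastricsin, rose by 1.00 ± 0.15 and the matrix glycoprotein THBS1 by 1.00 ± 0.16. Among the 20 largest decreases were PTMA, the chromatin protein prothymosin alpha (−0.78 ± 0.15), and RAMP1, a partner of the calcitonin receptor-like receptor (−0.79 ± 0.11). Others were KPNA2, a nuclear import receptor (−0.73 ± 0.19), and ATF5, a member of the integrated stress response list (−0.78 ± 0.18). ALYREF, an mRNA export factor, fell by 0.90 ± 0.20 on the probe used and showed 0.14 on its second probe. ZNF681, a zinc finger gene, was not above background on any EPZ6438 array and was detected on all 3 DMSO arrays, which gives at least 1.49-fold lower (adjusted p = 0.00492).

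Many lists held few or no called members. There were 0 called of 6 neuroendocrine, 7 blood and immune cell, 23 cancer-testis antigen and 16 endoplasmic reticulum chaperone genes. Of 29 Wnt pathway genes 2 were higher, of 18 ERK output and feedback genes 3 were higher, and of 26 hypoxia and 18 glycolysis genes 2 and 1 were lower. Oxidative phosphorylation had 1 of 39 higher and 1 lower. Of 7 DNA methylation genes 2 were lower, the maintenance methyltransferase DNMT1 (−0.40 ± 0.11, adjusted p = 0.0346) and its partner UHRF1 (−0.56 ± 0.16, adjusted p = 0.0324). The second probe of UHRF1 gave −0.36 and did not pass (adjusted p = 0.15). Of 19 histone genes 3 were higher and 1 lower. The lower one was H4C3, a replication-dependent histone (−0.70 ± 0.20), and the higher ones H2BC21, H1-10 and H1-2 (0.65, 0.52 and 0.50). Beside a background of 6.68% called, shares such as 2 of 29 do not set a list apart.

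EPZ6438 replicate 1 differed from replicates 2 and 3 in how far it moved, and for some genes in the direction. Its root mean square distance over genes from the mean of the other 2 was 0.31 on the log2 scale, against 0.21 for replicate 2 and 0.26 for replicate 3, and 0.18 to 0.20 for the DMSO arrays. Over all genes it correlated slightly more with DMSO replicate 1 (Pearson r = 0.992) than with EPZ6438 replicates 2 (0.99) and 3 (0.986), whereas replicates 2 and 3 correlated at 0.994. These are correlations across genes, which are not independent replicates. The number of detected probes did not set it apart, at 19618 against 20074 and 20355 in the other 2.

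A direct way to see this is to call genes without one EPZ6438 array and then look at that array. Without replicate 1, 1781 genes were called, and the array left out lay on the same side of the DMSO mean for 1380 of them (77.5%) and beyond the whole DMSO range on that side for 61.2%. Its median movement in the called direction was 0.18, against 0.51 in the other 2. Without replicate 2, 692 genes were called and replicate 2 lay on the same side for 97.3%, with a median of 0.43, against 0.56 in the other 2. Without replicate 3, 295 were called and replicate 3 lay on the same side for 98.3%, with a median of 0.67, against 0.58 in the other 2. The left-out array moved most for replicate 3 and least for replicate 1, on genes it did not help to call. The 3 gene sets differ, however. The same DMSO arrays served for the calls and as the reference, which raises every same-side share. Of the 921 genes called with all arrays, 822 were also called without replicate 1 and 284 without replicate 3.

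**Figure D3:**
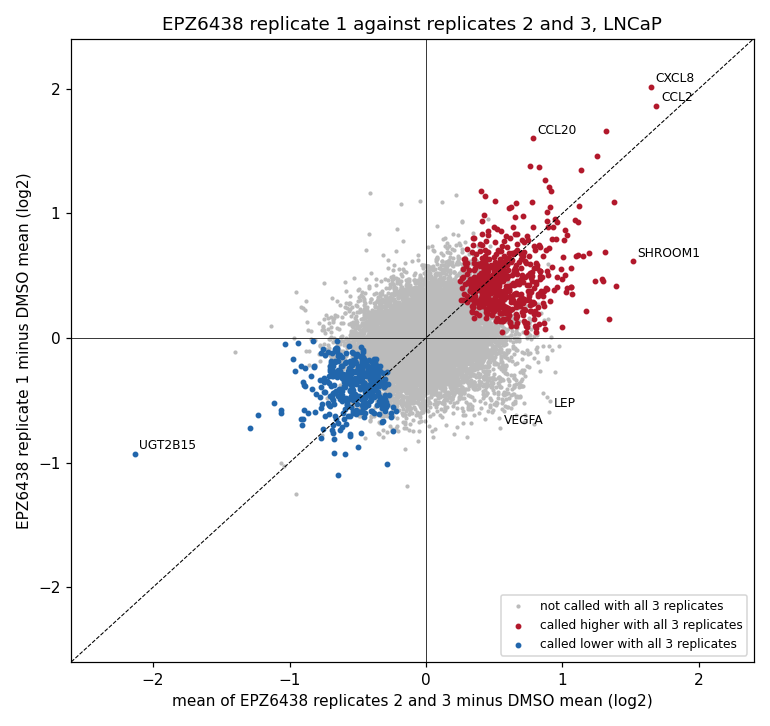
Log2 difference of EPZ6438 replicate 1 from the DMSO mean (vertical axis) against that of the mean of EPZ6438 replicates 2 and 3 (horizontal axis) for 13789 genes, with genes called with all 3 replicates in red (higher) and blue (lower) and equality as a dashed line. The chemokines CXCL8 and CCL2 lie near the line, UGT2B15 moved less in replicate 1, and LEP and VEGFA, neither of them called, were below the DMSO mean in replicate 1 and above it in the mean of the other 2.

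How much replicate 1 shared in the response depended on the gene group. The androgen-induced list had medians of 0.29, 0.35 and 0.43 in replicates 1, 2 and 3, the NF-kappaB list 0.27, 0.32 and 0.55, and DNA replication −0.30, −0.33 and −0.45. Interferon-stimulated genes were highest in replicate 1, with medians of 0.28, 0.14 and 0.20. For CDK inhibitors and quiescence genes the medians were 0.06, 0.21 and 0.50, for mitochondrial ribosomal proteins −0.03, −0.24 and −0.32, and for ribosome biogenesis −0.16, −0.28 and −0.52. CCL20 and CXCL10 were higher in replicate 1 (7.92 and 8.04) than in replicates 2 (6.91 and 7.34) and 3 (7.31 and 7.66), whereas SHROOM1 and PLCH2 were lower in it.

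The genes that were furthest from the other 2 EPZ6438 arrays in replicate 1 were taken among genes detected on all 3. The small cytoplasmic RNA RNY5 (8.05, 7.15 and 5.80 in replicates 1, 2 and 3, against 6.96, 7.11 and 6.57 with DMSO), AP2B1, an adaptor of clathrin coats, and TAF15, an RNA-binding protein, were high in it. LEP, the hormone leptin, read 6.22, 7.50 and 7.93 with EPZ6438 against 6.53, 6.74 and 7.18 with DMSO and was low in it, as were VEGFA, the angiogenic growth factor (5.49, 6.14 and 7.37 against 6.21, 6.14 and 6.30), SLC25A51, a mitochondrial carrier of NAD (10.30, 11.70 and 11.63 against 10.55, 10.61 and 11.18), and BLZF1, a golgin partner. Of the 20 genes taken by this rule, 10 in each direction, UGT2B15 alone was called between EPZ6438 and DMSO, against 6.68% of all genes. The rule picks genes with a wide spread among the EPZ6438 arrays, which works against a call, so nothing is concluded from this count. The differences of replicate 1 are those of a single array and carry no test.

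LNCaP and C4-2B shared part of the response. In C4-2B, 2093 of all 13789 genes were called between EPZ6438 and DMSO, 1122 higher and 971 lower. That is the background for the list counts in C4-2B below. Of the 2093 genes, 307 were called in LNCaP too, which is 33.3% of the LNCaP calls and 14.7% of the C4-2B calls. Of the 307, 263 had the same direction. The difference between the 2 effects was tested itself and passed for 920 genes (6.67%), with the LNCaP effect above the C4-2B effect in 473 and below it in 447. Among the 921 genes called in LNCaP, 248 (26.9%) also passed this test. The LNCaP effect enters both tests, so choosing genes by it raises this share, which cannot be set against the 6.67%. SOX9 (1.28 in LNCaP, 1.05 in C4-2B), PMEPA1 (0.95 and 1.00) and PGC (1.00 and 1.03) had similar values in both lines, and their differences of 0.23, −0.05 and −0.02 did not pass.

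**Figure D4:**
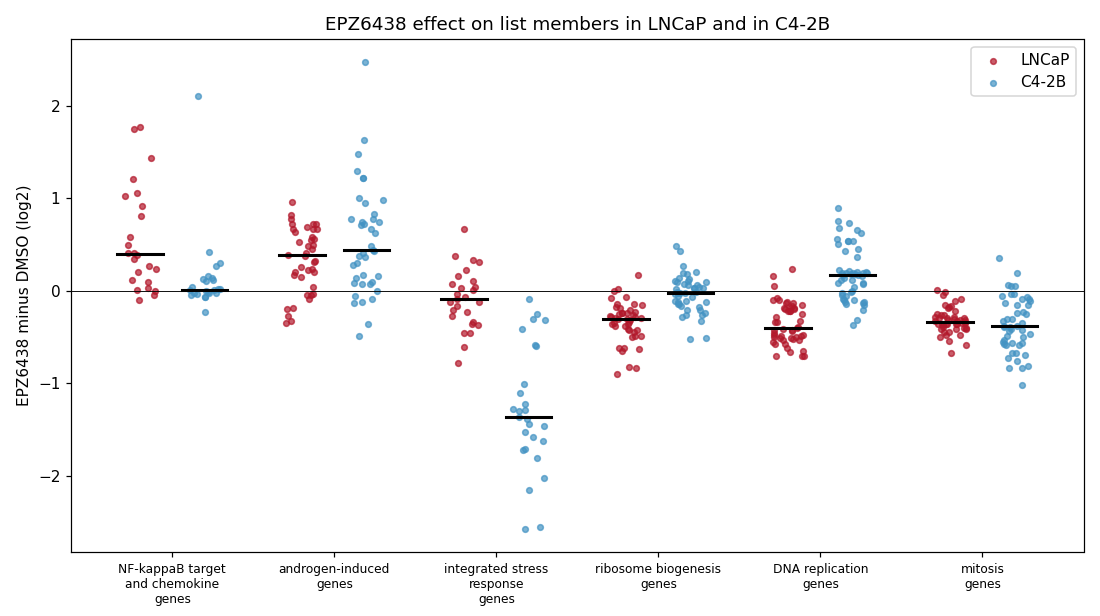
Log2 difference of EPZ6438 from DMSO (vertical axis) for the members of 6 gene lists, with 1 point per gene, LNCaP on the left and C4-2B on the right of each pair, and the median as a black bar. The NF-kappaB list has a median of 0.40 in LNCaP and 0.01 in C4-2B, the DNA replication list −0.41 and 0.17, and the integrated stress response list −0.09 and −1.37, while androgen-induced genes have 0.38 and 0.44.

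The inflammatory genes set LNCaP apart. In the NF-kappaB and chemokine list 9 of 24 members passed the test of the difference, 8 of them with the LNCaP effect above, and the list had 10 higher in LNCaP against 1 in C4-2B. CXCL8 differed by 1.76 (0.01 in C4-2B), CCL2 by 1.78 (−0.03 in C4-2B), CCL8 by 1.50 (−0.06) and LCN2 by 1.44 (−0.23), with adjusted p-values of 7.4e-05, 0.00013, 1.4e-05 and 1.3e-05. In the other direction CXCL12, a chemokine that binds CXCR4, was detected on 1 of the 6 LNCaP arrays and rose by 2.10 in C4-2B.

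DNA replication genes moved in opposite directions in the 2 lines. In C4-2B, 14 of the 51 were higher and none lower (median 0.17), and 24 passed the test of the difference, all with the LNCaP effect below. MCM10 showed −0.70 in LNCaP and 0.68 in C4-2B, PCNA −0.66 and 0.53, and E2F2 −0.70 and 0.54. Mitosis genes were lower in both lines, with 14 of 48 called lower in LNCaP and 26 in C4-2B, and 5 passed the test of the difference. Fatty acid synthesis genes had 2 of 16 lower in LNCaP and 9 higher in C4-2B, and 6 passed the test of the difference. Their lower count in LNCaP was 1, 1 and 0 without EPZ6438 replicates 1, 2 and 3 in turn. Cholesterol synthesis had 1 of 18 lower in LNCaP and 7 higher in C4-2B, and 6 passed, led by MSMO1, a sterol demethylase (−0.41 in LNCaP, 0.79 in C4-2B). Other probes of MSMO1 showed −0.34 (adjusted p = 0.56) and 0.19 (adjusted p = 0.45) in LNCaP. The lower count of this list in LNCaP was 2, 0 and 0 without EPZ6438 replicates 1, 2 and 3 in turn.

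The integrated stress response, the ATF4-driven programme of amino acid supply, separated the lines most. Of 27 genes, 22 were lower in C4-2B (median −1.37), whereas LNCaP had 3 lower and 1 higher (median −0.09), and 19 passed the test of the difference, all with the LNCaP effect above. The lower count in LNCaP was 4, 2 and 1 without EPZ6438 replicates 1, 2 and 3 in turn. DDIT3, a stress-induced transcription factor, showed 0.16 in LNCaP and −2.58 in C4-2B, and TRIB3, a pseudokinase of the same programme, −0.12 and −2.56. The amino acid transporters SLC7A11 (−0.46 in LNCaP, −1.72 in C4-2B) and SLC1A5 (−0.62 and −1.31) fell in both lines and by less in LNCaP. ATF3 rose by 0.66 in LNCaP and fell by 1.01 in C4-2B (log2 difference −1.01). Among androgen-induced genes, where 16 of 40 were higher in LNCaP and 22 in C4-2B, 10 passed the test of the difference, 7 of them with the LNCaP effect below, such as SGK1 (0.72 in LNCaP, 2.47 in C4-2B) and TRPM8 (0.72 and 1.63). The UGT2B genes split. UGT2B15 and UGT2B17 fell in both lines (−1.38 and −1.60 in C4-2B), while UGT2B10 showed 0.42 and UGT2B11 0.58 in C4-2B against decreases in LNCaP.

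EPZ6438 and the siRNA against EZH2 gave different profiles in the same line. The siRNA lowered EZH2 mRNA by 0.87 (log2 difference −0.87), against −0.12 with the inhibitor. Neither enzyme activity nor EZH2 protein was measured. The 2 experiments also differed in transfection and in their controls, which cannot be told apart here from the way EZH2 was targeted. The difference between the 2 effects passed the test for 2550 genes (18.5%), with the EPZ6438 effect above the siRNA effect in 1337 and below it in 1213. Of the 921 genes called with EPZ6438, 516 (56%) had the same sign with the siRNA. Of the 372 that were called with the siRNA as well, 211 moved the same way and 161 the opposite way. The same shares over all genes are not given here, so these counts have no background beside them. SOX9 (1.28 with EPZ6438, 1.04 with the siRNA) and CXCL8 (1.77 and 1.56) were alike in direction, and IGFBP3 rose with both (1.10 and 2.87). The androgen-induced list had a median of 0.38 with EPZ6438 and −0.70 with the siRNA. PMEPA1 showed 0.95 with EPZ6438 and −1.25 with the siRNA, KLK2 0.78 and −1.39, and TMPRSS2 0.72 and −1.30. UGT2B15 (−1.73 with EPZ6438, 2.05 with the siRNA) and UGT2B17 (−1.02 and 2.07) had opposite signs as well. Interferon genes were far higher with the siRNA, as for OASL (0.74 with EPZ6438, 3.32 with the siRNA) and CXCL10 (1.01 and 2.48).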

How the data were processed

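The authors deposited linear intensity before normalisation. They also deposited a detection p-value for every probe on every array, and a table of processed values. The submitters' processing notes name GenomeStudio, whose version is not given in the sources used here. In R 4.3.3, the neqc function of limma 3.58.1 took these intensities (read with version 1.17.8 of data.table) through background correction, quantile normalisation and log2. Detection p-values stood in for control probes, and the offset of 16 makes changes of dim probes smaller. There are 47311 probes. The annotation gives 30108 of them 1 gene, 8 more than 1 and 17195 no gene, and RefSeq held the Entrez ID of 30069. Detection (p under 0.05) on at least 3 of 24 arrays kept 26278 probes, 18826 of them named. The probe with the highest mean stood for each gene (3852 genes had several). Genes with no assigned probe are not analysed here.

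One mean per group was fitted over all 24 arrays (lmFit, eBayes, 16 residual and 7.43 prior degrees of freedom), which share 1 estimate of the spread. Tests are two-sided, with Benjamini-Hochberg adjustment over 13789 genes and calls at 0.05. The fit was tested on simulated data. Errors are SE of the fit unless stated. They rest on the spread over all 24 arrays, which for some genes is smaller than that of the LNCaP arrays listed beside them.

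The comparison and the 45 gene lists were chosen with earlier results of these data known, the lists from textbook knowledge. Named genes are EZH2, the 20 largest called changes each way without overlap between groups, up to 5 called members per list (2 where none is called) and the 8 largest each way of each difference test. Others were named after their values were seen. Promoters are RefSeq's, which held 10879 of the 13789 genes. Alternatives changed the background correction, normalisation, input table, probe filter, probe choice, samples in the fit, array weights, replicate block and replicates left out.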

Additional observations from a re-analysis of the deposited data

Results flagged for a closer look

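The effect of EPZ6438 in LNCaP differed from that in C4-2B, by a test of the difference itself, for 920 of all genes measured and for 56 of the called genes named by rule. Genes called in LNCaP pass this test more readily, because the LNCaP effect is part of it. The values that follow are the LNCaP effect minus the C4-2B effect on the log2 scale, each with an adjusted p under 0.05 in limma.

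The LNCaP effect was above the C4-2B effect for 26 of them. Secreted and inflammatory genes were CCL2 1.78, CXCL8 1.76, CCL8 1.50, LCN2 1.44, TNF 1.02 and CCL20 1.02. Interferon-stimulated genes were IRF1 1.25, CXCL10 0.96, OASL 0.85 and GBP2 0.76. Stress and amino acid genes, which fell more in C4-2B or fell there alone, were ATF3 1.67, SLC7A11 1.26, SLC1A5 0.69 and YARS1 0.63. Mesenchymal and matrix genes were ACTA2 0.93, MMP7 0.76 and TWIST1 0.70. The others were SHROOM1 1.10, AKR1C3 0.92, ID1 0.87, ADRA2A 0.82, FOXO3 0.75, MXD1 0.69, AZGP1 0.59, FZD4 0.58 and CENPA 0.53.

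The LNCaP effect was below the C4-2B effect for the other 30. Replication and nucleotide genes were MCM10 −1.38, UHRF1 −1.28, E2F2 −1.24, PCNA −1.19, POLE2 −0.87, RFC2 −0.82, PFAS −0.74, TYMS −0.70 and DNMT1 −0.53. Nucleolar genes were NOP56 −1.04, NOP58 −0.65 and LYAR −0.63. Genes that rose in both lines and by less in LNCaP were TXNIP −2.14, SGK1 −1.75, THBS1 −1.51, TRPM8 −0.91 and CD24 −0.74. Metabolic genes were UGT2B10 −1.34, MSMO1 −1.20, UGT2B11 −1.14, PDSS1 −1.0, SLC2A1 −0.97 and SCD −0.61. The remaining ones were FOXRED2 −1.12, PTMA −1.10, MMP16 −1.06, ZNF681 −0.76, SLITRK3 −0.71, RBBP7 −0.59 and AEN −0.51.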

How the results depend on the processing

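Calls numbered 552 higher, 369 lower, 920 between the lines and 2550 between inhibitor and siRNA. Centring on the median of all probes gave 26, 2, 35 and 267, and centring on detected probes 215, 140, 459 and 2024. Array weights gave 1161, 905, 1861 and 4001, and fitting only the arrays of each comparison 42, 11, 481 and 2624. Leaving out replicates moved the 4 counts over 69 to 958, 34 to 823, 300 to 1199 and 1324 to 2726. The lowest higher and lower counts were without replicate 3 of every group. The cause of these shifts was not tested. Under the other alternatives (no background correction, the authors' processed table, detection filters, probe averaging, replicate block) the counts stayed within 1.5 times. The replicate block gave 530 higher and 326 lower, 845 between the lines and 2435 between inhibitor and siRNA. The labels do not say whether arrays with equal replicate numbers belong together. Over genes, deviations of equally numbered EPZ6438 and DMSO arrays correlated at 0.32, −0.12 and 0.10. Unequal numbers gave −0.28 to 0.29, and what any pair of arrays shares was not tested. No value changed sign past the threshold. Under median centring the androgen-induced, DNA replication, mitosis and ribosome biogenesis lists had 0 members called and NF-kappaB 6. Fitting only the 6 LNCaP arrays called 2 androgen-induced, 5 NF-kappaB and 2 interferon-stimulated genes higher. It called 3 DNA replication genes lower, and 0 mitosis and 0 ribosome biogenesis genes. The medians of all these lists kept their sign in all 19 alternatives. A slide block was not run, because the files name no slide. Signals near background and 3 arrays per group limit small changes.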

Other observations

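Gene families outside the lists were looked at after their values were seen, and are given as counts with no test of the family. Over all genes 4% were higher and 2.68% lower. Of 16 HLA genes, which present antigens, 6 were higher and none lower with EPZ6438 in LNCaP, with a median log2 difference of 0.22, and the median in C4-2B was 0.33. HLA-B rose by 0.69 and HLA-E by 0.41. HLA sequences are alike, so their probes may share signal. Of 10 subunits and partners of the RNA exosome (EXOSC genes), which trims ribosomal RNA precursors, 3 were lower and none higher (median −0.37), with medians of −0.15, −0.25 and −0.58 in replicates 1, 2 and 3. Of 161 small nucleolar RNA genes, many of which guide the modification of ribosomal RNA, 11 were lower and none higher (median −0.13), which was 23 lower without EPZ6438 replicate 1.

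Of 412 zinc finger ZNF genes 3 were higher and 16 lower (median −0.03), a share of called genes below the 6.68% over all genes. Of 14 serpins, a family of protease inhibitors, 3 were higher, and of 16 tetraspanins, membrane organisers, 3 were higher. None of 33 proteasome subunits was called in limma with all 3 replicates, and 3 were lower without EPZ6438 replicate 1.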
